A study of Mus musculus with 6 samples.

Results

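The mitochondrially encoded genes are the rows of the deposited count table whose symbol starts with mt-. No measured value entered that rule, but it was chosen with earlier results of these data known. These genes numbered 37 of the 78275 in the table, namely 13 mRNAs, 2 rRNAs and 22 tRNAs. RNA was taken from CD4-CD8+ TCRβhigh T cells of WT mice and BIT mice, with 3 mice and 3 libraries in each group, and the labels describe the animals as 9 to 10 weeks old and male. BIT mice are homozygous for an allele in which the sequence of Psmb11, which encodes the thymoproteasome subunit β5t, was inserted at the start of Psmb8, which encodes the immunoproteasome subunit β5i. The allele was made by genome editing of C57BL/6 mice and is carried by all cells of the animal. Several independent lines exist. The study reports results from a single line unless it states otherwise, and the libraries' labels name no line. The sample labels and the study's RNA sequencing methods name lymph nodes as the source, whereas the labels' protocol text names lymph nodes and spleens.

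Library totals lay between 37467678 and 52922675 estimated counts. The genotypes matched their labels, since Psmb8 had 8024 to 10790 counts in WT libraries and 59 to 73 in BIT libraries, and Psmb11 had 0 counts in every WT library and 1226 to 1926 in BIT libraries. The summed level of the 5 T cell markers (Cd3e, Cd3g, Cd8a, Cd8b1 and Trbc2) was 3664 to 3964 CPM (estimated counts scaled to a common library total) in all 6 libraries, all 5 being present everywhere. Against the label male, Xist reached 66626 counts in WT replicate 3, where 4 Y-linked genes were all at 0. The other 5 libraries had at most 125 counts of Xist, and WT replicate 3 also had the highest level of 4 genes of dividing cells, at 87.9 CPM against 27.3 to 43.2. BIT replicate 2 had the highest level of 3 erythroid genes, at 44.1 CPM against 1.58 to 12.4. Values of mitochondrial genes that move by more than 1.5 times without either library are given with and without it, and the part these features play in them was not tested.

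Mitochondrial DNA is a small circle of which many copies lie in each mitochondrion. A dedicated RNA polymerase, POLRMT, copies both strands into long transcripts, in which most mRNAs and both rRNAs are separated by tRNAs, and the tRNAs are cut out to free the RNAs between them. The mRNAs all encode subunits of the respiratory chain and of ATP synthase, the rRNAs form the core of the mitochondrial ribosome, and the tRNAs serve that ribosome alone. All proteins that copy, cut, stabilize and translate these RNAs are encoded in the nucleus and imported. In T cells the respiratory chain is known to support long-lived memory cells, and mitochondrial mass increases upon activation.

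In the GRCm39 assembly the mitochondrial genome has 16299 bases, and the members follow each other on it with almost no space between them. A pair of features of these sequences may bear on the counts, and the sequences are printed to show them. The first is the overlap of neighbouring genes. The ATP synthase genes mt-Atp8 (chrM:7766-7969, + strand) and mt-Atp6 (chrM:7927-8607, + strand) share 43 bases, shown in capitals within chrM:7915-7981. The complex I genes mt-Nd4l (chrM:9877-10173, + strand) and mt-Nd4 (chrM:10167-11544, + strand) share 7 bases, shown in capitals within chrM:10152-10188. The shared bases alone do not tell which gene a read came from. The reads as sequenced were longer than either overlap, and the effect of the overlaps on the counts was not tested.
mt-Atp8 and mt-Atp6: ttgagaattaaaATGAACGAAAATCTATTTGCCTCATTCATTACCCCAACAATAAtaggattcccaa
mt-Nd4l and mt-Nd4: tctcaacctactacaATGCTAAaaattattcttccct

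The second is a set of near-identical copies in the nuclear genome. Alignment of the mitochondrial transcripts to all transcripts of the Gencode M39 annotation found 8 copies of 7 mRNAs with at least 99% identity over at least 100 bases. All 8 copies lay on chromosome 1, on the minus strand, within a stretch of 4663 bases (chr1:24650616-24655278), and most are annotated as unprocessed pseudogenes. The copies of mt-Co2 (Gm28661), mt-Atp6 (Atp6-ps), mt-Co3 (Gm28437) and mt-Nd4l (Gm10222) were 100% identical over 681, 678, 783 and 294 bases, which is nearly the whole of each gene. The copy of mt-Nd4 (Gm28439) was identical over 876 of its 1378 bases, and that of mt-Co1 (Gm29216) was 99.793% identical over 483 of its 1545 bases. The first 60 bases of mt-Co2 (chrM:7013-7696, + strand) are shown with those of Gm28661 (chr1:24653966-24654646, - strand) and of a less similar copy, Gm13341 (chr2:22477303-22477974, - strand), with bases that differ from mt-Co2 in capitals.
mt-Co2: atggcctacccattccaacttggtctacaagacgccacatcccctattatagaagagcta
Gm28661: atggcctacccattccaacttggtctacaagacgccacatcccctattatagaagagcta
Gm13341: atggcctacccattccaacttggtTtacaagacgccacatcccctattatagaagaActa

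Within these 60 bases Gm28661 differed from mt-Co2 at 0 positions and Gm13341 at 2. The copy of mt-Nd3, Gm28438 (chr1:24651856-24652200, - strand), carried a single difference from mt-Nd3 (chrM:9459-9806, + strand), T3C, counted from 1 at the 5′ end of the gene. It is shown as the capital in the first 23 bases of each. Gm71269, an overlapping noncoding gene at the same place, was listed as a further copy of mt-Nd3. A read from most of these genes therefore fits the mitochondrial genome and chromosome 1 equally well.
mt-Nd3: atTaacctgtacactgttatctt
Gm28438: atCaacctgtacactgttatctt

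RSEM, with which the authors counted, divides such reads between the places they fit, and for some genes the greater part was given to the nuclear copy. For mt-Co2, a core subunit of cytochrome c oxidase, the mitochondrial row held 5.84%, 4.33% and 3.19% of the counts of gene plus copy in WT replicates 1 to 3, and 4.0%, 5.5% and 3.94% in BIT replicates 1 to 3. For mt-Atp6, the proton channel subunit of ATP synthase, it held 9.59% to 11.8%. For mt-Co3, another core subunit of cytochrome c oxidase, it held 14.7% to 24.8%, and for mt-Nd3 19.0% to 29.8%. For these 4 genes the deposited row thus held at most 29.8% of the pooled counts in any library. The mitochondrial row of mt-Nd4l held 45.3%, 48.6% and 64.3% in WT libraries and 48.6%, 84.0% and 48.7% in BIT libraries, so its division varied the most between libraries. It held 89.1% to 90.7% for mt-Co1 and 99.8% to 99.9% for mt-Nd4. The division did not overlap between groups for mt-Nd3 alone, whose row held 21.8%, 19.0% and 24.9% in WT and 29.8%, 26.0% and 29.8% in BIT libraries. A further 11 copies with 90% to 99% identity had at most 485.54 counts in a library. For all libraries together, levels, shares and limma-voom fold changes are given below on the deposited rows. Where the copies could alter them, they are also given on gene plus copies. The edgeR and DESeq2 fits, and every fit with a library left out, were run on deposited rows alone.

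**Figure D1:**
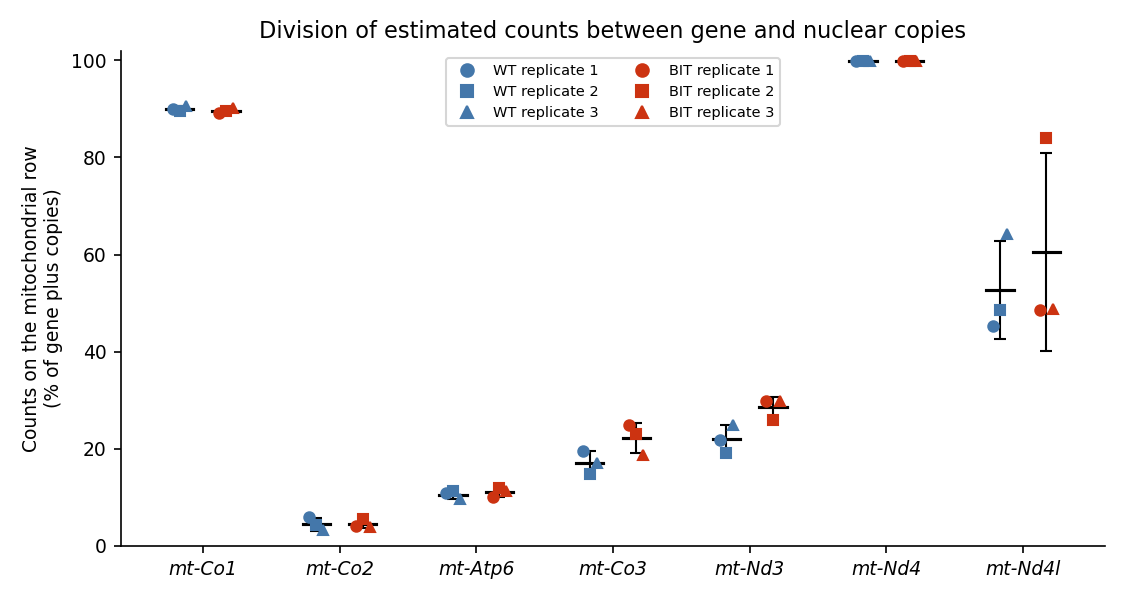
Share of the estimated counts of gene plus near-identical nuclear copies that stood on the mitochondrial row, in percent, for the 7 mRNAs with such a copy. Points are libraries, horizontal bars are group means and error bars are SD (n = 3 mice). The row of mt-Co2 held 3.19% to 5.84%, that of mt-Nd4 99.8% to 99.9%, and that of mt-Nd4l reached 84.0% in BIT replicate 2.

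The first comparison asked how much of the RNA in each library was mitochondrial. The 13 mRNAs took a smaller share of every BIT library than of any WT library, and 13 of 13 were lower in mean. At an adjusted p below 0.05, however, limma-voom fitted here across all genes called none of them (DESeq2 called 3 of 15, as given below). The study used limma-voom too, but it listed genes by fold change and p-value, a rule unlike this adjusted threshold. The summed mRNA share was 2.93%, 4.13% and 2.97% of all estimated counts in WT replicates 1 to 3 and 2.03%, 1.22% and 2.86% in BIT replicates 1 to 3. The means were 3.34% ± 0.68 and 2.03% ± 0.818 (SD, n = 3 each), and the geometric mean was 41.8% lower in BIT mice, a log2 difference of -0.78. The groups did not overlap, although BIT replicate 3 lay just under WT replicate 1. The exact permutation test (two-sided) gave p = 0.1, the smallest value that 3 against 3 mice allow, so that this design cannot reach 0.05 for a single value.

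With the nuclear copies counted, the mRNA share was 4.33%, 6.16% and 4.38% in WT and 3.06%, 1.85% and 4.19% in BIT libraries, a log2 difference of -0.77 (exact permutation p = 0.1). The copies alone took 1.4%, 2.03% and 1.41% in WT and 1.03%, 0.631% and 1.34% in BIT libraries. The order of the 6 libraries was the same on the mitochondrial rows as on the rows of the copies. RSEM divides the same reads between these rows, so the shared order is not a second observation. BIT replicate 2, the library with the most erythroid RNA, had the lowest mRNA share. Without it the log2 difference was -0.46 (3.34% against 2.44%) and the groups still did not overlap, and without WT replicate 3 the difference was -0.86. In bulk RNA a lower share can come from fewer cells that hold much mitochondrial RNA or from less of it in each cell, and these cannot be told apart.

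**Figure D2:**
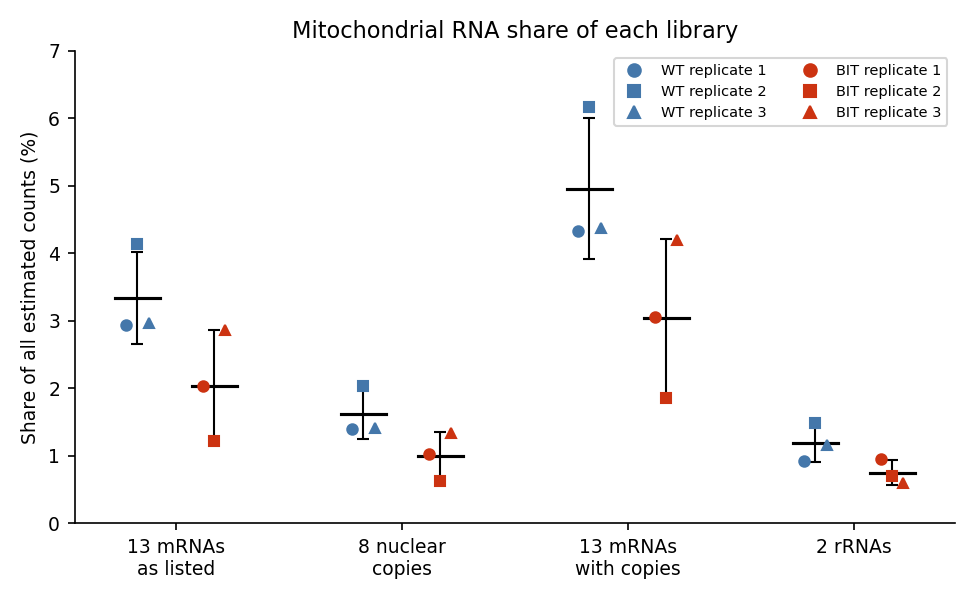
Share of all estimated counts in each library, in percent, for the 13 mitochondrial mRNAs as deposited, their 8 near-identical nuclear copies, both together, and the 2 mitochondrial rRNAs. Points are libraries, horizontal bars are group means and error bars are SD (n = 3 mice). The mRNA share lay at 2.93% to 4.13% in WT and at 1.22% to 2.86% in BIT libraries, whereas the rRNA shares of the groups overlapped.

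Of the single mRNAs, 7 of 13 had a lower share of the library in every BIT mouse than in any WT mouse, and with copies counted 9 of 13 did. Of all 16105 genes tested, 6.69% had every BIT library below every WT library. Without WT replicate 3 the count on deposited rows was 10 of 13 (11.5% of all genes), and without BIT replicate 2 it was 7 of 13 (9.7% of all genes). The 13 mRNAs are cut from shared transcripts and were measured in the same libraries, so they are not independent of each other.

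The fit across all genes, limma-voom with the quantile normalization that the study used, called 0 of the 15 mitochondrial genes tested at an adjusted p below 0.05, and 0.137% of all genes tested passed. At an unadjusted p below 0.05, 12 of the 15 were lower in BIT mice, compared with 4.32% of all genes tested. With TMM normalization, which scales each library by a single factor, 0 of 15 were called (0.0993% of all genes) and 13 of 15 were lower at an unadjusted p below 0.05, compared with 4.64% of all genes. The smallest adjusted p among them was 0.177 with quantile and 0.17 with TMM normalization, in both cases that of mt-Nd4l. The quasi-likelihood test of edgeR called 0 of 15 as well (0.0869% of all genes), with 12 of 15 lower at an unadjusted p below 0.05 (3.89% of all genes). DESeq2 called 3 of 15, namely mt-Nd4l, mt-Nd6 and mt-Cytb, where 0.94% of the genes with an adjusted p were called. Without BIT replicate 2, limma-voom called 0 (0.0119% of all genes on either normalization) and had 9 of 15 lower at an unadjusted p below 0.05 with quantile normalization (1.89% of all genes) and 8 of 15 with TMM normalization (1.68% of all genes). Without WT replicate 3 it called 1 of 15, mt-Co2, on either normalization, when it called 0.224% of all genes with quantile and 0.206% with TMM normalization. It then had 11 of 15 (6.43% of all genes) and 13 of 15 (5.73% of all genes) lower at an unadjusted p below 0.05.

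The normalizations differed most for mt-Co1, which encodes the catalytic subunit of cytochrome c oxidase and was the most abundant member. Its level was 14480, 20057 and 14596 CPM in WT and 10187, 6321 and 15525 CPM in BIT libraries. The BIT library with the highest value thus lay above 2 of the 3 WT libraries, and the other 2 lay below all of them. Quantile normalization replaces a gene's value by one fixed for its rank, and mt-Co1 ranked between 4 and 8 among the genes tested in every library. The CPM values of 14480 in WT replicate 1 and 20057 in WT replicate 2 both became 13.86 on the normalized log2 scale, whereas 15525 in BIT replicate 3 became 14.51. The log2 fold change of mt-Co1 (BIT over WT) was accordingly -0.01 with quantile normalization (limma adjusted p = 0.992) and -0.70 with TMM normalization (adjusted p = 0.590). With quantile normalization its sign turned without WT replicate 1, WT replicate 2 or BIT replicate 2, at 0.04, 0.06 and 0.27, and it was -0.14 without WT replicate 3. The median over the 13 mRNAs was -0.76 with quantile and -0.84 with TMM normalization, while that over all genes tested was 0.01 and 0.00.

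**Figure D3:**
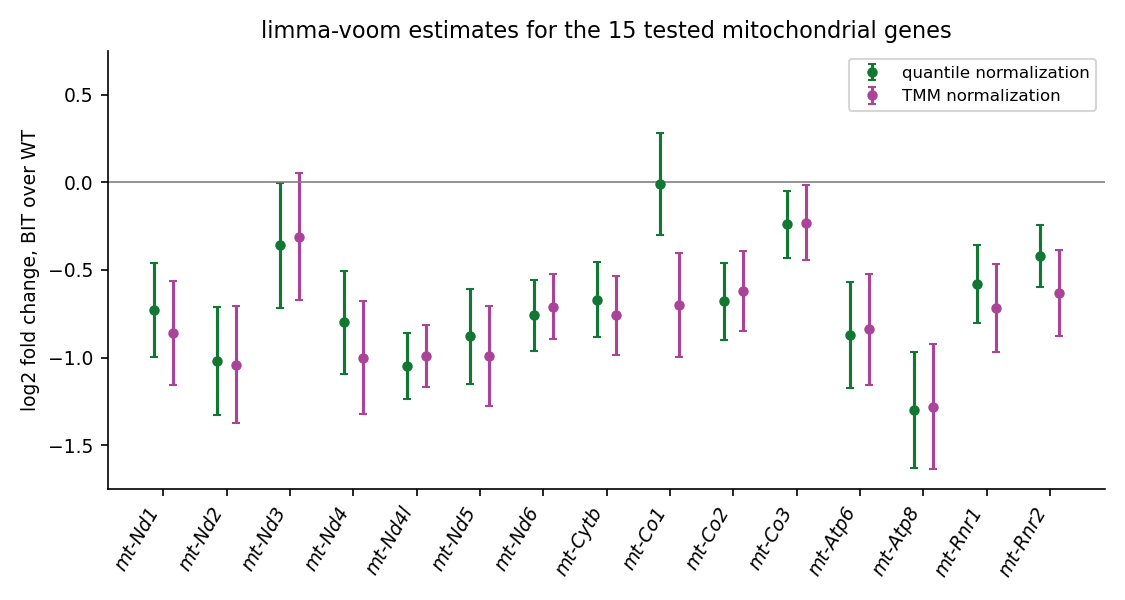
Log2 fold change (BIT over WT) from limma-voom with quantile normalization and with TMM normalization for the 15 mitochondrial genes tested, grouped as complex I, complex III, complex IV, ATP synthase and rRNAs. Error bars are standard errors of the fit (3 WT and 3 BIT libraries). The estimates lie close to each other except for mt-Co1, at -0.01 and -0.70.

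Complex I takes electrons from NADH and pumps protons, and 7 of its subunits are encoded by the mitochondrial genome. Of these 7 mRNAs 5 were at a lower level in all BIT libraries than in all WT libraries. Of all 13 mitochondrial mRNAs 7 were, and of all genes tested 6.69%. The 5 are cut from a shared transcript, so they are not independent of each other. The level of mt-Nd1 (chrM:2751-3707, + strand) was 2733, 4035 and 2773 CPM in WT and 1900, 1075 and 2529 CPM in BIT libraries (log2 fold change -0.73 ± 0.267 SE with quantile normalization, limma adjusted p = 0.539). The level of mt-Nd2 (chrM:3914-4951, + strand) was 1810, 2738 and 1770 CPM in WT and 1217, 572 and 1445 CPM in BIT libraries (log2 fold change -1.02 ± 0.308 SE, limma adjusted p = 0.503). Neither gene overlapped between the groups, and both encode membrane subunits of the proton-pumping arm. The level of mt-Nd4 was 2999, 4337 and 3069 CPM in WT and 1917, 997 and 2630 CPM in BIT libraries (log2 fold change -0.80 ± 0.296 SE, limma adjusted p = 0.543). That of mt-Nd5 (chrM:11742-13565, + strand) was 2495, 3590 and 2623 CPM in WT and 1563, 909 and 2123 CPM in BIT libraries (log2 fold change -0.88 ± 0.273 SE, limma adjusted p = 0.508). These mRNAs encode the large antiporter-like subunits of the same arm, and their levels did not overlap either. Without BIT replicate 2 the differences were smaller, at -0.40 for mt-Nd1, -0.63 for mt-Nd2, -0.41 for mt-Nd4 and -0.56 for mt-Nd5.

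The remaining complex I mRNAs were scarce or divided with a copy. The mt-Nd4l row held 166, 260 and 237 CPM in WT and 111, 92.2 and 127 CPM in BIT libraries, without overlap. Its log2 fold change was -1.05 ± 0.188 SE with quantile normalization (limma adjusted p = 0.177) and -1.01 with DESeq2 (adjusted p = 6.67e-06). DESeq2 was not run with the copy counted. With its copy counted, mt-Nd4l had 366, 535 and 368 CPM in WT and 229, 110 and 261 CPM in BIT libraries, still without overlap, at a log2 fold change of -1.20 ± 0.307 SE (limma adjusted p = 0.383). The standard error was thus larger on the pooled value than on the deposited row, on which 84.0% of the pooled counts stood in BIT replicate 2 and 45.3% to 64.3% in the other libraries. The mt-Nd3 row held 100, 104 and 66.2 CPM in WT and 108, 38.5 and 88.9 CPM in BIT libraries, with overlap (log2 fold change -0.36 ± 0.355 SE, limma adjusted p = 0.800). With copies counted mt-Nd3 had 459, 547 and 266 CPM in WT and 362, 148 and 298 CPM in BIT libraries, which also overlapped. The difference of mt-Nd3 was then -0.74 with quantile normalization (limma adjusted p = 0.632). On the deposited mt-Nd3 row the difference was 0.08 without BIT replicate 2 and -0.60 without WT replicate 3.

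The mRNA mt-Nd6 is the only one of the 13 read from the light strand (chrM:13552-14070, - strand), and so it reports on the other primary transcript. Its level was 83.3, 129 and 123 CPM in WT and 63.3, 56.2 and 86.4 CPM in BIT libraries (log2 fold change -0.76 ± 0.203 SE, limma adjusted p = 0.414, DESeq2 adjusted p = 0.0169). BIT replicate 3 lay just above WT replicate 1, and the other 2 BIT libraries lay below all WT libraries. Set against the 12 heavy-strand mRNAs, mt-Nd6 had 2.85, 3.13 and 4.17 counts per 1000 in WT and 3.13, 4.63 and 3.04 in BIT libraries. The ratio overlapped between groups, with a log2 difference of 0.08 (exact permutation p = 0.7). With copies counted the difference was 0.06 (exact permutation p = 0.7). On deposited rows its sign turned to -0.12 without BIT replicate 2 and to -0.03 without WT replicate 1, while it was 0.24 without WT replicate 3.

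Complex III passes electrons to cytochrome c, and mt-Cytb (chrM:14145-15288, + strand), its cytochrome b, is the only subunit that mitochondria encode. Its level was 2283, 3344 and 2643 CPM in WT and 1592, 1181 and 2223 CPM in BIT libraries, without overlap. The log2 fold change was -0.67 ± 0.215 SE with quantile normalization (limma adjusted p = 0.511) and -0.75 with DESeq2 (adjusted p = 0.032). No near-identical copy was annotated for mt-Cytb, so its row is free of the division described above.

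Cytochrome c oxidase, complex IV, is built around the products of mt-Co1 (chrM:5328-6872, + strand), mt-Co2 and mt-Co3 (chrM:8607-9390, + strand). The deposited row of mt-Co2 held 275, 300.0 and 169 CPM in WT and 143, 145 and 185 CPM in BIT libraries (log2 fold change -0.68 ± 0.220 SE, limma adjusted p = 0.511). BIT replicate 3 overlapped with WT replicate 3, the WT library with the smallest part of the pooled counts on that row. Without WT replicate 3, mt-Co2 was the only mitochondrial gene called, at a log2 fold change of -0.98 on its deposited row (limma adjusted p = 0.0221). Its TMM value was -0.93 (limma adjusted p = 0.0201). The fits without that library were not run with the copy counted. With the copy counted mt-Co2 had 4707, 6923 and 5309 CPM in WT and 3586, 2634 and 4705 CPM in BIT libraries, and the highest BIT library lay just under the lowest WT library. The log2 difference of those pooled CPM values was -0.65 (exact permutation p = 0.1), while the fold change of gene plus copy was -0.41 with quantile normalization (limma adjusted p = 0.604) and -0.66 with TMM normalization (adjusted p = 0.573).

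The row of mt-Co3 held 859, 905 and 702 CPM in WT and 842, 500 and 807 CPM in BIT libraries, which overlapped (log2 fold change -0.24 ± 0.191 SE, limma adjusted p = 0.748). With the copy counted it had 4397, 6170 and 4118 CPM in WT and 3392, 2167 and 4314 CPM in BIT libraries, still with overlap, and its log2 fold change was -0.28 with quantile normalization (limma adjusted p = 0.722) and -0.61 with TMM normalization (adjusted p = 0.591), where the deposited row had -0.23. Without BIT replicate 2 the difference of the deposited mt-Co3 row was 0.01. With its copy counted, mt-Co1 had 16102, 22388 and 16096 CPM in WT and 11435, 7061 and 17220 CPM in BIT libraries, so the overlap of its deposited row remained, and the fold change was -0.24 with quantile normalization (limma adjusted p = 0.838) and -0.69 with TMM normalization (adjusted p = 0.592).

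ATP synthase takes its a subunit from mt-Atp6 and a small membrane subunit from mt-Atp8. The level of mt-Atp8 was 542, 793 and 527 CPM in WT and 330.0, 134 and 357 CPM in BIT libraries. No other member had a larger log2 fold change, at -1.30 ± 0.333 SE with quantile (limma adjusted p = 0.385) and -1.28 with TMM normalization (adjusted p = 0.485), and its groups did not overlap. The row of mt-Atp6 held 464, 678 and 393 CPM in WT and 299, 173 and 423 CPM in BIT libraries, with BIT replicate 3 above WT replicate 3 (log2 fold change -0.87 ± 0.302 SE, limma adjusted p = 0.535). With its copy counted, mt-Atp6 had 4286, 6034 and 4101 CPM in WT and 3007, 1460 and 3742 CPM in BIT libraries, now without overlap. The fold change of gene plus copy was -0.64 with quantile (limma adjusted p = 0.623) and -0.90 with TMM normalization (adjusted p = 0.582). Without BIT replicate 2 the deposited rows had -0.86 for mt-Atp8 and -0.53 for mt-Atp6 with quantile normalization. No near-identical copy was annotated for mt-Atp8.

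Levels of different mRNAs can be set against each other only per length. With copies counted, and per kilobase of the mitochondrial gene, the means in WT libraries were 11777 ± 2350 CPM for mt-Co1, 8255 ± 1675 for mt-Co2, 7059 ± 1566 for mt-Atp6 and 6243 ± 1420 for mt-Co3 (SD, n = 3). The means of mt-Co2, mt-Atp6 and mt-Co3 lay within the SD of their neighbours in that order. That SD is the spread between mice, and all genes were measured in the same libraries. It therefore does not measure how firm the order of genes within a library is. Next came mt-Nd1 at 3324 ± 774, mt-Atp8 at 3042 ± 731, mt-Nd4 at 2521 ± 548, mt-Cytb at 2410 ± 472 and mt-Nd2 at 2029 ± 528 CPM per kilobase, followed by mt-Nd5 at 1591 ± 328, mt-Nd4l at 1424 ± 326 and mt-Nd3 at 1219 ± 413. From mt-Nd1 to mt-Nd3 each mean lay within the larger SD of the pair it formed with the next, under the same limit. The light-strand mRNA mt-Nd6 was lowest, at 215 ± 47.8 CPM per kilobase. In BIT libraries the same 4 genes led, at 7706 ± 3298 for mt-Co1, 5324 ± 1515 for mt-Co2, 4197 ± 1374 for mt-Co3 and 4018 ± 1710 CPM per kilobase for mt-Atp6, and mt-Nd6 was again lowest at 132 ± 30.4. On the deposited rows mt-Co2 and mt-Atp6 stood at 362 and 752 CPM per kilobase in WT libraries, so that mt-Atp8 lay above mt-Atp6 on those rows and below it with the copy counted.

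The second comparison asked whether the make-up of the mitochondrial mRNA differed, by giving each mRNA as its share of the 13. The scaling to the library cancels in such a share. On deposited rows 4 of the 13 shares did not overlap between groups, and 36.0% of all genes tested did not overlap, in either direction, when expressed per count of mitochondrial mRNA. The part of the library taken by mitochondrial mRNA was itself lower in every BIT library. That shift acts on all other genes on this scale but cancels in the members' shares. These counts are therefore unlike, and no conclusion is drawn from setting them side by side. With copies counted 8 of 13 shares did not overlap, against 36.4% of all genes on that scale. The smallest exact permutation p for a single share is 0.1, as above.

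The mRNA of mt-Co1 made up 37.2%, 36.4% and 36.8% of the pooled mitochondrial mRNA in WT and 37.4%, 38.2% and 41.1% in BIT libraries, which was higher in every BIT library by a log2 difference of 0.08. The share of mt-Co3 was 10.2%, 10.0% and 9.4% in WT and 11.1%, 11.7% and 10.3% in BIT libraries, a log2 difference of 0.16. These were the 2 shares that were higher without overlap once copies were counted, and only that of mt-Co1 was so on deposited rows.

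Of the 6 shares that were lower without overlap, mt-Atp8 had the widest difference, with 1.25%, 1.29% and 1.2% in WT and 1.08%, 0.726% and 0.852% in BIT libraries (log2 -0.51). The share of mt-Nd4l was 0.846%, 0.869% and 0.84% in WT and 0.748%, 0.593% and 0.623% in BIT libraries (log2 -0.39). Both are short genes with a longer neighbour that overlaps them. The other 4 encode complex I subunits. Their log2 differences were -0.28 for mt-Nd2, -0.23 for mt-Nd4, -0.22 for mt-Nd5 and -0.09 for mt-Nd1. The share of mt-Nd5 was 5.77%, 5.83% and 5.99% in WT and 5.11%, 4.91% and 5.06% in BIT libraries, with little spread within either group. On deposited rows the shares of mt-Atp8, mt-Nd4 and mt-Nd5 were lower without overlap, and those of mt-Nd1, mt-Nd2 and mt-Nd4l overlapped. The shares of mt-Cytb, mt-Nd6, mt-Nd3, mt-Co2 and mt-Atp6 overlapped between the groups on both scales. Without BIT replicate 2, 8 of 13 shares did not overlap with copies counted (37.6% of all genes) and 5 on deposited rows (37.1%). Without WT replicate 3 these counts were 8 (60.4% of all genes) and 6 (60%). The counts of all genes are unlike those of the members here too, for the reason given above.

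**Figure D4:**
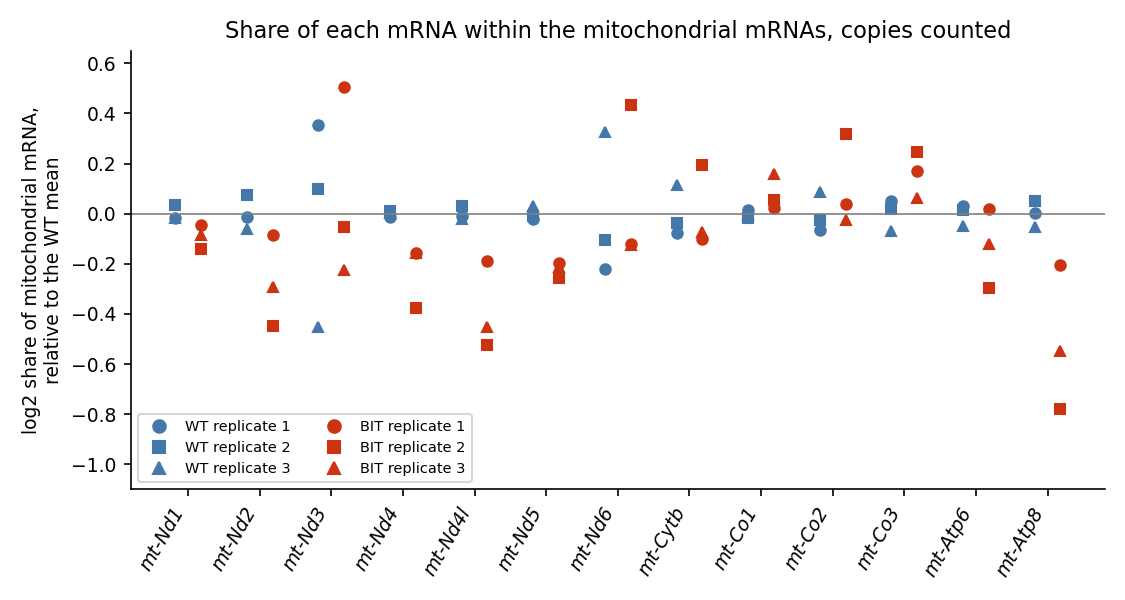
Log2 share of each mRNA within the 13 mitochondrial mRNAs, copies counted, relative to the mean of the WT libraries. Points are libraries (3 WT and 3 BIT mice). BIT points lie below all WT points for 6 mRNAs, with a mean difference from -0.09 for mt-Nd1 to -0.51 for mt-Atp8, and above them for mt-Co1 and mt-Co3.

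The mitochondrial rRNAs are removed by the depletion kit along with cytoplasmic rRNA, so their counts are what depletion left. The small-subunit rRNA mt-Rnr1 (chrM:70-1024, + strand) had 5417, 8708 and 6578 CPM in WT and 5391, 3899 and 3334 CPM in BIT libraries (log2 fold change -0.58 ± 0.224 SE, limma adjusted p = 0.547). The groups did not overlap, but WT replicate 1 and BIT replicate 1 were nearly level. The large-subunit rRNA mt-Rnr2 (chrM:1094-2675, + strand) had 3828, 6163 and 5008 CPM in WT and 4149, 3049 and 2572 CPM in BIT libraries, which overlapped (log2 fold change -0.42 ± 0.178 SE, limma adjusted p = 0.562). Together the rRNAs took 0.924%, 1.49% and 1.16% of WT and 0.954%, 0.695% and 0.591% of BIT libraries, a log2 difference of -0.67 (exact permutation p = 0.2).

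The order of the BIT libraries was not the same for rRNA and mRNA. BIT replicate 3 had the lowest rRNA share of all libraries and the highest mRNA share of the BIT group. Per mRNA count with copies there were 0.214, 0.242 and 0.265 rRNA counts in WT and 0.312, 0.375 and 0.141 in BIT libraries, so that the BIT libraries lay on both sides of the WT range (exact permutation p = 0.9). The ratio of mt-Rnr2 to mt-Rnr1 was 0.707, 0.708 and 0.761 in WT and 0.77, 0.782 and 0.771 in BIT libraries. It was higher in every BIT library, by a log2 difference of 0.10 (exact permutation p = 0.1), but WT replicate 3 lay close to the BIT values. The part that depletion played in these rRNA values was not tested.

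All 22 mitochondrial tRNAs had 0 counts in all 6 libraries, 14 on the heavy and 8 on the light strand. They are 59 to 75 bases long, and 2 are printed to show how short these RNAs are, mt-Ts2 (chrM:11613-11671, + strand), a serine tRNA and the shortest, and mt-Tl1 (chrM:2676-2750, + strand), a leucine tRNA and the longest. A count of 0 allows up to 3 counts, which is 0.0567 to 0.0801 CPM in these libraries, for counting error only. The reads as sequenced were longer than any of these tRNAs, so this bound is no measure of their level in the cells. The base before mt-Tl1 is the last of mt-Rnr2, whose counts are given above. A tRNA share could therefore not be compared between groups, and tRNAs were not detectable in these libraries rather than shown to be absent from the cells.
mt-Ts2: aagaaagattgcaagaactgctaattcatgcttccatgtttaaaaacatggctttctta
mt-Tl1: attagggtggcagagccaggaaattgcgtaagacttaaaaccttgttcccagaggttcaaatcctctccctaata

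The nuclear genes that serve mitochondrial gene expression gave list medians near that of all genes. Of 106 such genes in 6 lists by textbook role, 105 were tested and 0 passed (smallest limma adjusted p = 0.503), with 4 at an unadjusted p below 0.05, all higher in BIT mice, when 4.25% of all genes were higher at that level. With TMM normalization 6 were at an unadjusted p below 0.05, 5 of them higher (3.64% of all genes) and 1 lower, so that the counts on both scales were near those of all genes. Their median log2 fold change was 0.03 with quantile and 0.04 with TMM normalization, beside -0.76 and -0.84 for the 13 mRNAs and 0.01 and 0.00 for all genes. Of the genes that transcribe mitochondrial DNA, Polrmt, the polymerase, had 28.1, 25.6 and 27.0 CPM in WT and 27.8, 32.9 and 29.5 CPM in BIT libraries (log2 fold change 0.14). Tfam, which packs the DNA and starts transcription, had 43.2, 43.0 and 37.5 CPM in WT and 45.8, 51.2 and 40.4 CPM in BIT libraries (log2 fold change 0.10), and both overlapped between groups. The initiation factor Tfb2m and the elongation factor Tefm had log2 fold changes of -0.04 and -0.16. Mterf1a and Mterf4, of the mitochondrial termination factor family, had -0.25 and -0.15. The 9 transcription genes had a median of -0.08, and the 15 genes of mtDNA maintenance had a median of 0.04, with Ssbp1, the single-strand binding protein, at -0.21, the nuclease Exog at 0.20 and the topoisomerase Top3a at 0.14.

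Among the 37 genes of RNA cleavage, modification and stability the median was 0.07. Lrpprc, which binds and stabilizes mitochondrial mRNAs, had 83.6, 75.1 and 83.3 CPM in WT and 95.5, 106 and 92.4 CPM in BIT libraries, higher in all 3 BIT mice (log2 fold change 0.23 ± 0.0868 SE, limma adjusted p = 0.547). Its partner Slirp had 9.05, 10.6 and 8.91 CPM in WT and 8.42, 5.66 and 7.13 CPM in BIT libraries, lower in all 3 BIT mice (log2 fold change -0.42 ± 0.198 SE, limma adjusted p = 0.613). Elac2, which cuts tRNA 3′ ends, had 25.9, 24.3 and 24.7 CPM in WT and 28.1, 30.2 and 29.7 CPM in BIT libraries (log2 fold change 0.22, limma adjusted p = 0.553). The levels of these 3 genes and of Fastkd5 did not overlap between the groups, though none passed the test. Of all genes tested, 6.69% had every BIT library below every WT library, a share that bears on Slirp alone. The share in the other direction, that of Lrpprc, Elac2 and Fastkd5, was not counted, so nothing is concluded from their lack of overlap. Fastkd5, needed for mRNAs whose ends lack a tRNA, had a log2 fold change of 0.20, Trmt10c of the 5′ end nuclease -0.06, and the poly(A) polymerase Mtpap was at 0.00.

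The 22 genes of tRNA charging had a median of 0.10, with Gars1, the glycyl-tRNA synthetase shared with the cytoplasm, at 0.22 and Hars2 and Fars2, which charge histidine and phenylalanine tRNAs in mitochondria, at 0.17 and 0.16. The 14 translation factors had a median of 0.03. Tufm, the elongation factor that brings tRNAs to the mitochondrial ribosome, had 58.2, 51.3 and 57.9 CPM in WT and 68.5, 77.7 and 66.8 CPM in BIT libraries, higher in every BIT mouse (log2 fold change 0.29 ± 0.0883 SE, limma adjusted p = 0.503). The share of all genes that were higher in every BIT mouse was not counted. Gfm2 and Mtfmt, which act in ribosome recycling and in formylation of the initiator tRNA, had 0.18 and -0.17. Of the 9 regulators of mitochondrial biogenesis 8 were tested, with a median of 0.03, among them Pprc1 at 0.21, Myc at 0.21 and Esrra at 0.11. The 78 proteins of the mitochondrial ribosome had a median of -0.07, with 2 at an unadjusted p below 0.05, Mrpl52 at 0.29 and Mrpl48 at -0.35, while Mrps16 was at -0.24 (smallest limma adjusted p = 0.547).

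The nuclear subunits of the same respiratory complexes, chosen by symbol after the data had been seen, offered a further yardstick. Of 83 such genes 75 were tested, 0 passed, and 7 were lower at an unadjusted p below 0.05 with quantile normalization, against 4.32% of all genes. With TMM normalization 3 were lower, against 4.64% of all genes, so the count depended on the normalization. The median log2 fold change was -0.16 with quantile and -0.14 with TMM normalization. Atp5if1, the inhibitor protein of ATP synthase, had -0.40, the complex I subunit Ndufa13 -0.37 and the complex IV subunit Cox7c -0.37. Together these genes took 0.48%, 0.514% and 0.439% of WT and 0.469%, 0.48% and 0.423% of BIT libraries (log2 difference -0.06, exact permutation p = 0.5). Per count of them there were 9.01, 12 and 9.97 mitochondrial mRNA counts with copies in WT and 6.52, 3.85 and 9.92 in BIT libraries. The ratio had a log2 difference of -0.70 but overlapped between groups, since BIT replicate 3 stood above WT replicate 1 (exact permutation p = 0.2). Without BIT replicate 2 the difference was -0.35.

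**Figure D5:**
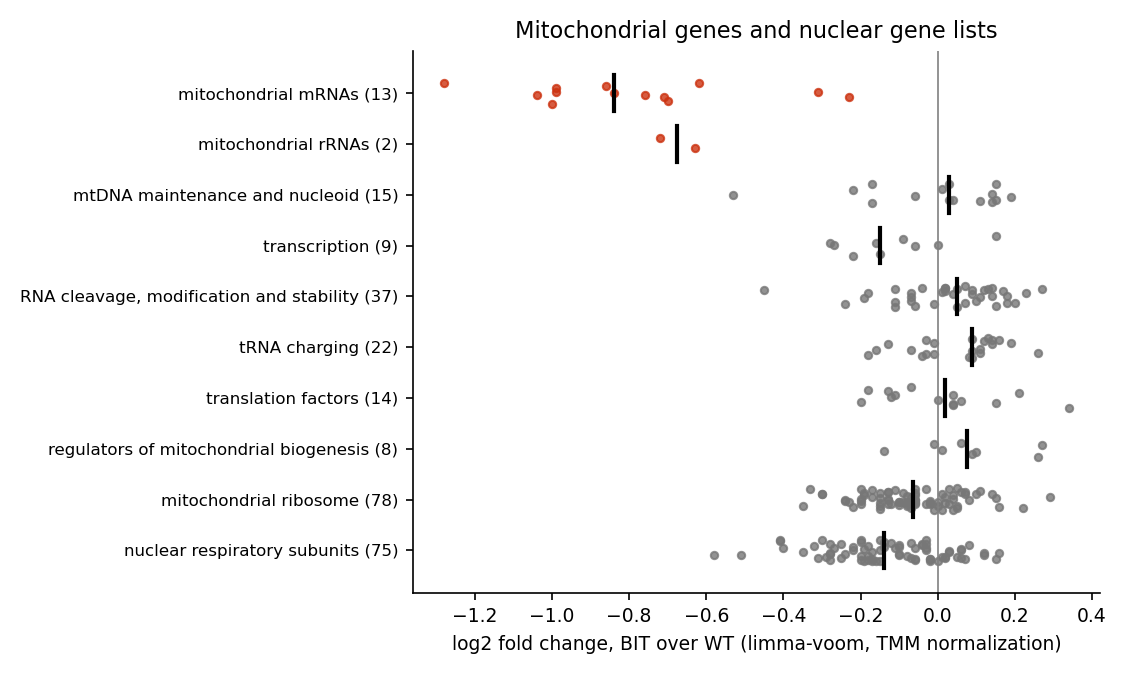
Log2 fold change (BIT over WT, limma-voom with TMM normalization) of the tested members of each list, with the number of genes in brackets. Points are genes and black bars are list medians. The mitochondrial mRNAs have a median of -0.84 and the rRNAs of -0.68, whereas the medians of the 8 nuclear lists lie between -0.15 and 0.09.

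Markers of other cell types were read in the same libraries. The 5 B cell markers summed to 309 to 349 CPM across all libraries, with all 5 detected in each, and the 4 markers of CD4 T cells summed to 3.22 to 5.68 CPM, both with overlapping groups. The 5 myeloid markers summed to 10.1, 14.9 and 16.8 CPM in WT and 8.07, 8.65 and 10.6 CPM in BIT libraries, highest in WT replicate 3. Of 3 markers of γδ T cells 2 were in the table, at 3.61 to 5.03 CPM together, and the 3 erythroid genes were at 12.4, 8.58 and 1.58 CPM in WT and 5.25, 44.1 and 10.7 CPM in BIT libraries. The library with the most erythroid RNA was that with the least mitochondrial mRNA. The part of these cells in the mitochondrial shares was not tested.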

How the data were processed

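Libraries were prepared with a stranded total RNA kit with rRNA depletion and sequenced paired-end. The authors trimmed reads with Cutadapt 1.18, aligned them with STAR 2.7.0f to GRCm39, and deposited RSEM 1.3.1 estimated counts per gene (Gencode M38). The strand setting is not given in the sources used here. RSEM divides reads that fit several genes, so a row depends on near-identical genes elsewhere.

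Groups came from the sample labels. Members and lists were chosen with earlier results of these data known. After rounding and a filter on low counts (filterByExpr, edgeR 4.0.16), 16105 genes entered limma-voom (limma 3.58.1, R 4.3.3) under quantile normalization, and p-values were adjusted by the Benjamini-Hochberg method over all of them. Positions were from Gencode M39, which held 78263 of 78275 identifiers. Copies were found with BLAST 2.17.0. Shares were compared by exact permutation tests. Alternatives were TMM, library totals, edgeR, DESeq2 1.42.0, no filter, blocks and left-out libraries. Counting copies was added after seeing the data. The scripts were tested on simulated data. Nothing in the labels says that library preparation was separate, so p-values measure the spread between these mice and libraries. All mRNAs and rRNAs, tRNAs with a mean of at least 100 counts, the 3 nuclear genes with the smallest p in each list, and 10 fixed nuclear genes were named.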

Additional observations from a re-analysis of the deposited data

How the results depend on the processing

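The mRNA share of the library stayed lower in BIT mice under every scaling tried and with each library left out, at -1.07 to -0.46 on the log2 scale, the smallest difference being without BIT replicate 2, and at -1.14 in replicates 1 and 2 only. The rRNA share ranged from -0.87 to -0.50 with a library left out. Deviations of same-numbered libraries from their group means correlated across genes at 0.236, 0.035 and 0.441. Deviations from a mean of 3 libraries are tied to each other, so these values cannot settle whether the replicate numbers pair the mice. The replicate 3 libraries correlated with each other at 0.441 and with libraries of other numbers at -0.374 to -0.175, and with replicate 3 as a batch 0 mitochondrial genes were called (mt-Nd4l limma adjusted p = 0.0608). A replicate block left the mRNA share at -0.78 (exact permutation p = 0.25), the rRNA share at -0.67 (exact permutation p = 0.5) and 0 mitochondrial genes called. With 3 blocks, 0.25 is the smallest value that this two-sided permutation test can give.

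The number of mitochondrial genes called was 0 in the main test, 3 with DESeq2, and 0 to 1 with a library left out. It was 1 without WT replicate 3 (mt-Co2), and also 1 under TMM normalization without that library. The light-strand to heavy-strand ratio lay between -0.12 and 0.24 with a library left out. The mRNA shares that did not overlap numbered 4 (36.0% of all genes per mitochondrial mRNA count), 7 in replicates 1 and 2 only (86.5%) and 8 with copies counted (36.4%). They numbered 4 to 6 with a library left out (37% to 69.2%). With copies counted against the geometric mean of the mRNAs they numbered 6, and the share of all genes was not counted there. As above, the counts of all genes are unlike those of the members, and no conclusion is drawn from them. Of 345 comparisons of single members with an alternative, 333 kept direction and call, 5 gained a call and 7 turned sign. The turned signs were those of mt-Co1 (-0.42 to 0.27 with a library left out), mt-Co3 (-0.37 to 0.01) and mt-Nd3 (-0.68 to 0.08), the last pair also under TMM normalization without BIT replicate 2, at 0.01 and 0.14. Of 390 comparisons of named nuclear genes 12 turned sign, those of Tfb2m (-0.13 to 0.00), Trmt10c (-0.17 to 0.06) and Mtpap (-0.08 to 0.05), the last also at 0.02 with TMM, library totals, edgeR and DESeq2. The cause was not tested. The tRNA share gave no value under any setting, since all its counts were 0.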
